A study of Mus musculus with 4 samples.

Results

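The cells described here are basal epithelial cells of the anterior prostate (AP) of intact mice, sorted into an RFP+ and an RFP- gate and compared between the gates. They number 948, of 5498 adult cells that passed the limits on quality and carried 1 population barcode and of 19148 cells in the whole series. The cells were selected on their own counts: 750 to 7500 detected genes, under 10% of UMIs (unique molecular identifiers, each standing for 1 captured transcript) from mt- genes, at least 1 UMI of Epcam, 0 of Ptprc, and at least 5 UMIs of Krt5 and Krt14 together per 10000. The RFP+ gate gave 622 cells (223, 139 and 260 in runs 1, 2 and 3) and the RFP- gate 326 (85, 60 and 181).

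The mice were adult males, over 8 weeks old, on an ICR (CD-1) background, and carried the P2-Runx1:RFP reporter, in which 1 allele of Runx1 expresses RFP from its proximal promoter P2 while the other allele is wild type. Both gates carried the same reporter allele and came from intact, that is not castrated, mice. EPCAM+ cells of each lobe were sorted by RFP, tagged with lipid-anchored MULTI-seq oligonucleotides, pooled and loaded on a 10x Genomics 3′ lane, 1 lane for each of the 3 runs. Cells of several mice were pooled before sorting, so an RFP+ and an RFP- sum of the same run share their mice, their dissociation and their library. A run, not a mouse or a cell, was the replicate (n = 3). Where runs were not paired, p-values measure the spread between runs. Where they were paired, p-values measure how far the difference between the gates varied from run to run.

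The prostate epithelium is built of a layer of basal cells, which rest on the basement membrane and express keratins 5 and 14 and the transcription factor p63, and of luminal cells, which secrete the prostatic fluid. RUNX1 is a DNA-binding transcription factor that works as a heterodimer with CBFB. Its gene is transcribed from a distal promoter, P1, and from P2. RFP fluorescence therefore stands for P2 activity, whereas 3′ counts of Runx1 cannot tell transcripts of P1 from those of P2, and the RFP transgene itself was not among the counted genes.

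The barcodes that gave each cell its gate are shown first, since every comparison rests on them. A cell was assigned when the count of its top barcode was at least 3 times the median of that barcode in its library and at least 2 times the next ratio.
run 1 AP RFP+: GGAGAAGA
run 1 AP RFP-: CCACAATG
run 2 AP RFP+: GGAGAAGA
run 2 AP RFP-: CCACAATG
run 3 AP RFP+: AGAGAGAG
run 3 AP RFP-: TCACAGCA
Runs 1 and 2 used the same pair of barcodes, and run 3 another pair. The paper states that labelling with the barcode of intact dorsolateral prostate (DLP) RFP+ cells failed in runs 1 and 2. It left a large number of cells of those runs without a barcode call in the study. Whether such cells entered an AP gate here was not tested. In run 3 the sequence of each of these barcodes was listed for 2 populations in the sample sheet, so that run was assigned by barcode name. Between runs, 0 to 3 cell barcodes were shared among all cells past the quality limits and 0 among the AP basal cells.

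The windows around the starts of Runx1 transcripts from its 2 promoters are shown because RFP reports only the second. Both are 300 bases from RefSeq on GRCm38.p6, read on the minus strand from 250 bases before to 50 after the start, at chr16:92826025-92826324 for P1 and chr16:92697280-92697579 for P2. Capitals mark the core motif of RUNX proteins, TGTGGT, or its reverse complement ACCACA.
Runx1 distal P1: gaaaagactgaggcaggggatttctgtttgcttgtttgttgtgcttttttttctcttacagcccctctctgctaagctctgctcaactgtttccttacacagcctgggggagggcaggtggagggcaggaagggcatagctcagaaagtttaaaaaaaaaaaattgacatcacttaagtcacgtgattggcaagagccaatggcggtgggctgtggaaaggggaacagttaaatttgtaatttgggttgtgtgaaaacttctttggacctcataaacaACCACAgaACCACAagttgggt
Runx1 proximal P2: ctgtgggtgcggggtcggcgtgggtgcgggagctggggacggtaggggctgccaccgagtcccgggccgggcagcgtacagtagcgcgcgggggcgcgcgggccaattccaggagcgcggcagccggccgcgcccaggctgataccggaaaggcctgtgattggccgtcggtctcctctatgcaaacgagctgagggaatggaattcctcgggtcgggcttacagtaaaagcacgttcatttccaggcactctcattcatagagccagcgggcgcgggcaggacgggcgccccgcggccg
The P1 window held 2 matches at a GC content of 45.0%, and the P2 window 0 at 69.0%. Of all 32851 start windows of this length, 5506 (16.8%) held at least 1 match on either strand.

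The basal label held in both gates. Trp63, which encodes p63 and was not part of the rule, was detected in 84.3%, 65.5% and 62.3% of RFP+ basal cells and in 69.4%, 55.0% and 50.8% of RFP- basal cells of runs 1, 2 and 3, against at most 3.48% of AP luminal cells of any run and gate. Krt15, a keratin of basal cells, was detected in 100% of run 1 basal cells of both gates. It was also detected in 68.6%, 70.4% and 54.2% of AP RFP+ luminal cells of runs 1 to 3. In RFP- luminal cells the shares were 20.2%, 22.6% and 40.0%, so its detection separates the classes less than that of Trp63. The genes of the rule are given without a test. Krt5 stood at 986, 755 and 861 CPM (UMIs of the gene per 1000000 UMIs of the sum) in the RFP+ sums of runs 1 to 3 and at 1150, 743 and 760 in the RFP- sums. Krt14 stood at 2337, 2291 and 1906 CPM in RFP+ and at 2535, 2098 and 2240 in RFP-, and the gates overlapped for both keratins. Epcam lay between 504 and 966 CPM in all 6 sums, and Ptprc was at 0 by the rule. The 10 AP epithelial cells just outside the keratin limit had 4.698 to 4.996 UMIs of Krt5 and Krt14 per 10000, and the 10 basal cells just inside it had 5.037 to 5.627.

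Depth and makeup differed between the gates in some runs. The RFP+ sums held 5372834, 1899792 and 2976928 UMIs and the RFP- sums 1343687, 852908 and 1802027. The median per basal cell was 20092 UMIs in RFP+ against 10574 in RFP- in run 1, but 9833 against 10112 in run 2 and 9447 against 8497 in run 3. Basal cells were 48.9% of the AP RFP+ cells that passed the quality limits in run 1 (95% exact binomial interval 44.2 to 53.6, which covers counting error only) and 40.1% (33.4 to 47.0) of the RFP- cells. In run 2 the shares were 25.1% (21.5 to 28.9) and 23.9% (18.8 to 29.7), and in run 3 they were 58.2% (53.4 to 62.8) and 66.3% (60.4 to 71.9). The epithelial part of the rule (Epcam at least 1 UMI, Ptprc 0) was met by 278 of 554 RFP+ cells of run 2, against 229 of 251 RFP- cells. Of the cells that met it, basal cells were 54.8% and 48% in run 1, 50% and 26.2% in run 2, and 59.8% and 72.4% in run 3, in RFP+ and RFP- respectively. The direction in run 3 was thus opposite to that in run 1 with either denominator, so that no gate was richer in basal cells throughout. In run 2 the gates were nearly equal over all cells past the quality limits, and differed only among the cells that met the epithelial part. The cells with the highest 6% of Scrublet doublet scores in their library made up 19.3%, 10.1% and 8.46% of RFP+ basal cells and 9.41%, 8.33% and 8.29% of RFP- basal cells. No cell was removed as a doublet from the values below, unless stated.

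The first question was which genes differed between RFP+ and RFP- basal cells. Few did, and none beyond the spread between runs when runs were not paired. Of 9138 genes tested, 0 (0%) passed an adjusted p of 0.05 in edgeR's quasi-likelihood test, 61 (0.668%) had an unadjusted p under 0.05, and DESeq2 called 0 of the 17694 genes it tested, with 36 at an unadjusted p under 0.05. Because both gates of a run came from the same pooled mice, the fit with run as a block was set beside it. It called 14 genes (0.153%), 7 higher in RFP+ (0.0766%) and 7 lower (0.0766%), and 502 (5.49%) had an unadjusted p under 0.05. The 14 changed to 69, 59 and 3 without run 1, run 2 and run 3, and to 98 with no filter on low counts. The same block in DESeq2 called 2 genes, Mt3 and Clu. The differences were small: the median absolute log2 fold change over all tested genes was 0.13 against a median standard error (SE) of 0.28, or 0.19 with the block, and the median signed change was -0.01. Of 2603 genes at a mean of 50 CPM or more, 16 differed by over 1 on the log2 scale. The CPM of the 3 RFP+ sums lay above all 3 RFP- sums in 210 genes (2.3%) and below in 110 (1.2%), while RFP+ was the higher gate in 3 of 3 runs in 1272 genes (13.9%) and the lower in 1208 (13.2%).

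Runx1 (chr16:92601466-92826149, minus strand, GRCm38), the gene whose promoter the reporter reads, was higher in RFP+ basal cells of each run, by a modest amount. Its level was 78.5, 159.5 and 169 CPM in the RFP+ sums of runs 1, 2 and 3, and 67.0, 100.8 and 122.6 CPM in the RFP- sums. The ratio within a run was 1.17, 1.58 and 1.38, but the gates overlapped, since run 1 was low in both. The log2 fold change was 0.48 (SE 0.41, 95% interval -0.47 to 1.43), and with runs paired 0.44 (SE 0.10) at an adjusted p of 0.204 in edgeR, so Runx1 did not pass the threshold in either fit. The paired difference passed in 4 of 14 alternatives, with run 1 left out, under the read-count barcode thresholds of the study, with a stricter keratin limit and with no filter on low counts. Runx1 UMIs were spread over many cells, the 5 richest holding 9.95%, 14.9% and 9.15% of the RFP+ UMIs.

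Many basal cells of the RFP- gate also held Runx1 transcripts. At least 1 UMI was found in 45.9% (35 to 57), 58.3% (44.9 to 70.9) and 55.8% (48.2 to 63.2) of RFP- basal cells of runs 1 to 3, and in 71.7% (65.4 to 77.6), 62.6% (54.0 to 70.6) and 68.1% (62.0 to 73.7) of RFP+ basal cells. After each cell was thinned to 3000 UMIs, the shares were 17.9%, 25.4% and 28.9% in RFP- and 27.6%, 32.6% and 38.5% in RFP+. The RFP- luminal cells of the same lobe gave 5.13%, 2.63% and 0% after thinning (0 of 34 cells in run 3, exact upper bound 10.3%), and 21.4%, 14.2% and 17.5% before it, at median depths of 19990, 22605 and 17408 UMIs. The RFP- basal share was thus above that of RFP- luminal cells in each run, whether or not depth was equalised.

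The partners and relatives of RUNX1 did not separate the gates. Cbfb, its heterodimer partner, stood at 19.4, 19.5 and 21.8 CPM in RFP+ and 21.6, 23.5 and 13.9 in RFP- (log2 fold change 0.08, SE 0.25). Runx2, best known for bone formation, was near the limit of detection, at 12.1, 1.58 and 5.38 CPM against 7.44, 9.38 and 0.555 (0.38, SE 0.82). Both changed sign when run 3 was left out. Runx3 reached at most 2.63 CPM in any sum and was not tested. Trp63 was higher in RFP+ in 3 of 3 runs, at 130.5, 105.3 and 110.5 CPM against 105.7, 80.9 and 98.2, with gates that overlapped narrowly (105.3 against 105.7) and a log2 fold change of 0.27 (SE 0.17, 95% interval -0.12 to 0.65).

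**Figure D1:**
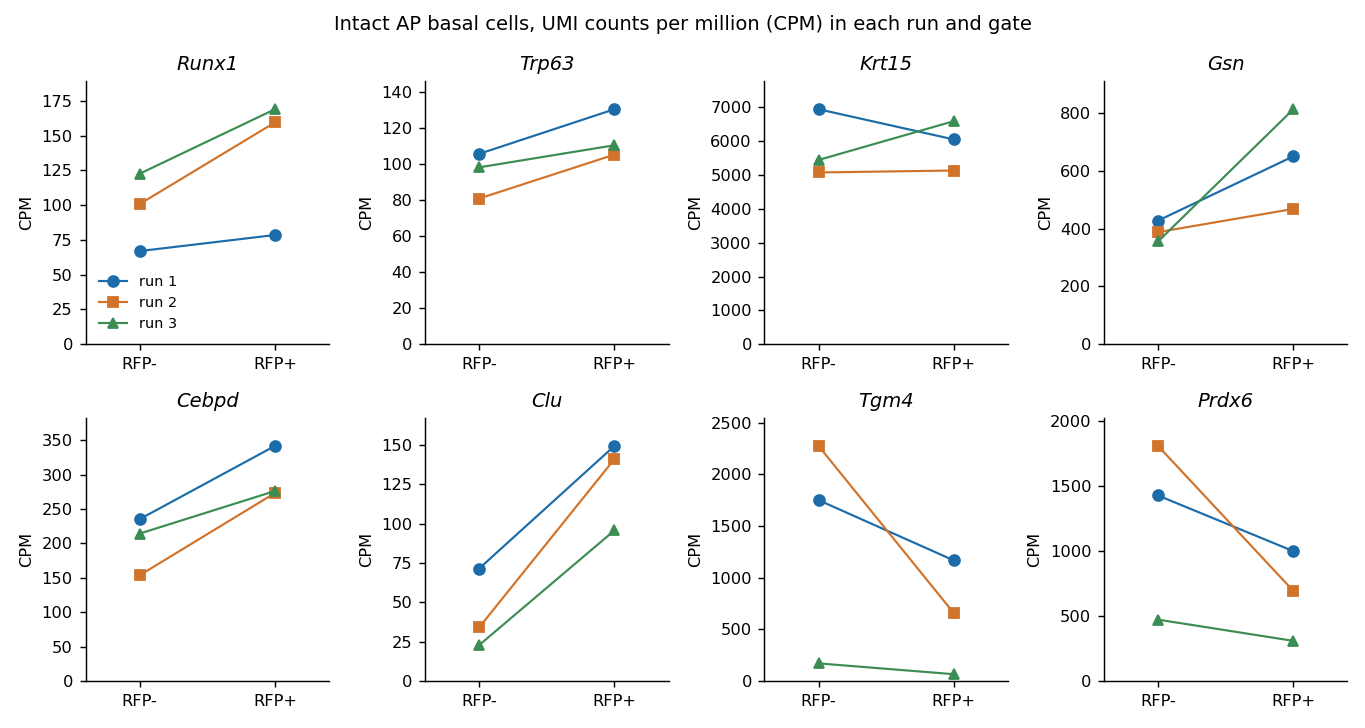
Levels (CPM, linear axes from 0) of 8 genes in intact AP basal cells, with 1 line per run joining the RFP- sum to the RFP+ sum of the same run. Runx1 lies higher in RFP+ in each run while run 1 is low in both gates, Krt15 shows no common direction, and for Clu, Cebpd and Gsn the lowest RFP+ sum lies above the highest RFP- sum.

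The 14 genes that passed with runs paired were chosen after their values were seen, by that fit, and 9 of them moved the same way in 3 of 3 runs. In 3 of the 14, Clu, Cebpd and Gsn, all RFP+ sums lay above all RFP- sums. Over all tested genes, RFP+ was higher in 3 of 3 runs in 13.9% and lower in 13.2%, and all its sums lay above those of RFP- in 2.3%. The paired fit favours genes that move alike in each run, so these counts add no support to the calls. Clu (chr14:65968483-65981547), which encodes the secreted chaperone clusterin and is a marker of proximal luminal cells, stood at 149.5, 141 and 95.7 CPM in RFP+ and at 71.5, 34.0 and 22.8 in RFP-. Its paired log2 fold change was 1.61 (SE 0.17, adjusted p = 5.78e-04, edgeR), and the unpaired one 1.62 (SE 0.33). These UMIs came from few cells: the 5 richest held 60.3%, 74.6% and 73.7% of the RFP+ Clu UMIs. After thinning, 10.9%, 10.9% and 8.95% of RFP+ basal cells held a Clu UMI, against 7.14%, 10.2% and 5.0% of RFP- basal cells and 83.8% to 90.6% of RFP+ luminal cells. Without the cells of highest Scrublet score the difference was 0.27 (adjusted p = 0.963), and the call was also lost without run 3 (1.45, adjusted p = 0.283).

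Cebpd and Gsn were spread over more cells. Cebpd (chr16:15887286-15891031), the transcription factor C/EBP delta, stood at 342, 273 and 276 CPM in RFP+ and 235, 154 and 214 in RFP- (paired log2 fold change 0.55, SE 0.09, adjusted p = 0.0162, edgeR). The 5 richest cells held 10.4%, 28.3% and 15.1% of its RFP+ UMIs. Gsn (chr2:35256380-35307892), which encodes the actin-severing protein gelsolin, stood at 650.5, 468.5 and 814 CPM against 428, 388 and 356 (0.70, SE 0.12, adjusted p = 0.0408), with 18.0%, 18.0% and 14.3% of RFP+ UMIs in 5 cells. Both differences kept their sign under all 14 alternatives with runs paired, between 0.45 and 0.68 for Cebpd and between 0.44 and 0.90 for Gsn, and passed the threshold in 9 and 10 of them. The share of cells with a Gsn UMI after thinning was 68.8%, 68.8% and 70.4% in RFP+ and 64.3%, 57.6% and 61.7% in RFP-.

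The genes that were lower in RFP+ with runs paired included 3 genes of distal luminal cells. Of the 13 tested genes of the distal luminal list, 9 had a negative and 4 a positive unpaired log2 fold change. Their median was -0.17 and the highest value 2.86. Tgm4 (chr9:123034726-123067561), a transglutaminase of the prostatic secretion, stood at 1167, 656 and 64.8 CPM in RFP+ basal cells and at 1751, 2276 and 170 in RFP- (paired log2 fold change -1.24, SE 0.16, adjusted p = 0.00331, edgeR). 9530053A07Rik, a gene of the distal luminal list with no named function, stood at 2021, 914 and 74.9 CPM against 3175, 3285 and 284 (-1.44, SE 0.18). Pbsn, the androgen-regulated secretory protein probasin, stood at 813, 662 and 54.1 CPM against 999, 1512 and 133 (-0.89, SE 0.14). Each of these was lower in RFP+ in 3 of 3 runs, and each varied more between runs than between gates. Few cells carried most of these UMIs, above all in RFP-: in runs 1, 2 and 3 the 5 richest RFP- cells held 79.1%, 78.5% and 58.8% of the Tgm4 UMIs, against 40.1%, 50.5% and 30.6% in RFP+. For 9530053A07Rik they held 83.4%, 76.8% and 73% in RFP-, and for Pbsn 77.4%, 78% and 54%. After thinning, a Tgm4 UMI was found in 40.3%, 23.9% and 14% of RFP+ cells and in 34.5%, 33.9% and 22.8% of RFP- cells, so that in run 1 this share was the higher in RFP+, as it was for 9530053A07Rik (31.7% against 28.6%). Prdx6, a peroxiredoxin, stood at 1000.0, 694 and 309 CPM against 1429, 1811 and 472 (-0.84, SE 0.13). Mt3, a metallothionein, gave -2.04 (SE 0.18) at 10.8, 30 and 3.70 CPM against 36.5, 130.1 and 20.5, and Chn2, a GTPase-activating protein for Rac, gave -1.07 (SE 0.16).

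The differences of these 6 genes were smaller without the basal cells richest in luminal RNA. In each run the 20% of basal cells richest in luminal transcripts, Tgm4, Pbsn, Sbp, Spink1 and Psca among them, included fewer of the RFP+ cells (18.8%, 18.0% and 16.5%) than of the RFP- cells (23.5%, 25% and 25.4%). With those cells left out, the paired differences were 0.01 for Tgm4, -0.08 for Pbsn, -0.61 for 9530053A07Rik, -0.11 for Prdx6, 0.09 for Chn2 and -1.42 for Mt3, and none of the 6 passed. Tgm4 and Pbsn were among the transcripts that ranked the cells, so their values there depend on the ranking itself. The other 4 genes did not rank the cells, but each was higher in RFP- luminal than in RFP- basal cells in each run. They are therefore no independent check. In RFP- luminal cells Tgm4 stood at 16700, 12700 and 14120 CPM, Prdx6 at 10450, 8282 and 8357, and Mt3 at 311, 460 and 801. The cause of the differences between the gates was not tested. Mal, a membrane raft protein, was the seventh lower gene (-1.52, SE 0.27) and was lower in RFP+ in 2 of 3 runs.

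The remaining 4 higher genes rested on 1 cell or were near 0 in run 3. Svs5, a seminal vesicle secretory protein, gave 5.59 (SE 0.60), but stood at 1208 CPM in RFP+ run 1 alone and between 3.33 and 11.9 in the other 5 sums, and 1 cell held 6438 of the 6493 UMIs of that run. Cd74, the invariant chain of MHC class II, stood at 34.1, 164 and 0.672 CPM against 8.93, 8.21 and 2.22. Penk, the precursor of enkephalins, stood at 23.6, 127 and 0 CPM against 3.72, 27.0 and 1.11, and Bgn, the matrix proteoglycan biglycan, at 57.7, 48.4 and 0 against 18.6, 16.4 and 1.11. Penk, Cd74 and Bgn were higher in RFP+ in runs 1 and 2 and lower in run 3. Without the cells of highest Scrublet score none of these 3 passed, at 1.39 for Penk (2.20 with them), 1.03 for Cd74 (2.89) and 1.44 for Bgn (1.51). Of the 9 genes of the 14 with a RefSeq start window, 2 (22.2%), Gsn and Mal, held the RUNX motif printed above in at least 1 of their windows. The 16.8% given above counts each window singly, so the shares are not of the same measure.

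**Figure D2:**
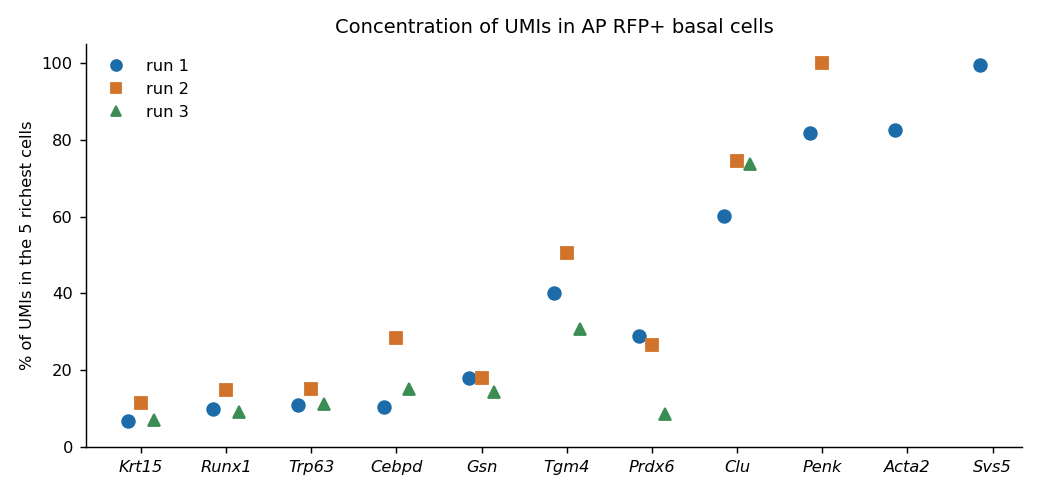
Share of each gene's UMIs held by the 5 AP RFP+ basal cells with the most UMIs of that gene, in per cent, with 1 point per run; runs with under 20 UMIs of a gene are not drawn. Krt15, Runx1 and Trp63 lie at or below 15% in every run, whereas Clu lies between 60.3% and 74.6% and Svs5, drawn for run 1 only, at 99.4%.

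The genes that define basal cells and anchor them to the basement membrane showed no difference past the threshold. Over all tested genes the share that passed was 0%, or 0.153% with runs paired. Counts of 0 in lists of this size, here and below, therefore do not set a list apart from other genes. Of 15 tested basal markers outside the rule, 0 passed in either fit, 11 had a positive and 4 a negative log2 fold change, and the median was 0.06 against -0.01 over all genes. Krt15 stood at 6054, 5136 and 6596 CPM in RFP+ and 6948, 5078 and 5448 in RFP- (0.04, SE 0.20). Krt17, a keratin of basal and stressed epithelium, gave -0.18 (SE 0.26), and Dst, which encodes the hemidesmosome linker dystonin, gave 0.18 (SE 0.22) and was higher in RFP+ in 3 of 3 runs. Of 24 hemidesmosome and basement membrane genes, 0 passed, 17 were positive and the median was 0.08. Itga6, the alpha subunit of the laminin-binding integrin, stood at 221, 209 and 226 CPM against 199, 197 and 226. The interval of its log2 fold change ran from -0.38 to 0.50.

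Transcription factors of the prostate lineage and the signalling pathways likewise gave 0 calls in either fit. The median over 28 lineage factors was 0.05, with Nfib (0.04, SE 0.18), Sox4 (0.05, SE 0.17) and Ehf (-0.10, SE 0.21) the most abundant. Among 23 WNT pathway genes 11 were positive and 12 negative (median -0.02), and the ligand Wnt4 stood at 267, 153 and 174 CPM against 257, 173.5 and 179. Among 13 Notch pathway genes the median was 0.12. The target Hes1 was lower in RFP+ in 2 of 3 runs (-0.08, SE 0.20), the ligand Jag2 higher in 3 of 3 (0.22, SE 0.23) and the receptor Notch1 higher without overlap of the gates, at 59.9, 55.3 and 43.0 CPM against 40.9, 42.2 and 41.6 (0.32, SE 0.18). Among 23 TGF-beta and BMP genes the median was 0.07, and the target Id1 gave 0.09 (SE 0.23). Among 11 EGF family genes the median was 0.05, with the ligand Hbegf at 0.06 (SE 0.39). The receptor Egfr stood at 64.2, 44.2 and 41.3 CPM in RFP+ and 50.6, 42.2 and 48.8 in RFP-.

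Stress, cell cycle and hormone response genes gave 1 call, and only with runs paired. The 26 immediate early genes, which respond within minutes to stimulation or dissociation, summed to 32130, 18370 and 18280 CPM in RFP+ and to 31430, 16820 and 18280 in RFP-, with 0 calls and a median of 0.07. Junb gave 0.09 (SE 0.27) and Atf3 -0.08 (SE 0.19). Among 20 interferon and MHC class I genes the median was 0.07, and among 20 glutathione and detoxification genes -0.01. The 12 tested genes of S and G2/M phase had a median of -0.17, with Hmgb2 at -0.04 (SE 0.39), and 0 passed. Among 15 androgen-responsive genes 1 passed with runs paired, Pbsn, and the median was -0.01.

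The other lists gave the same picture of small and mixed differences. Among 12 progenitor surface markers the median was -0.07, with Ly6a, which encodes Sca-1, at 0.04 (SE 0.44) and Aldh1a1, a retinaldehyde dehydrogenase, at -0.10 (SE 0.24). Medians were -0.02 over 10 HOX genes, -0.07 over 8 retinoid genes, -0.08 over 20 genes of hypoxia, glycolysis and lipid handling and -0.12 over 11 squamous and stress keratin and envelope genes, with 0 calls in either fit. Among 11 genes of MHC class II and inflammation the median was 0.27 and 1, Cd74, passed with runs paired, while the NF-kappaB inhibitor Nfkbia stood at 751, 725 and 644 CPM against 732, 709 and 624. Among 21 matrix genes the median was 0.08 and 1, Bgn, passed with runs paired.

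**Figure D3:**
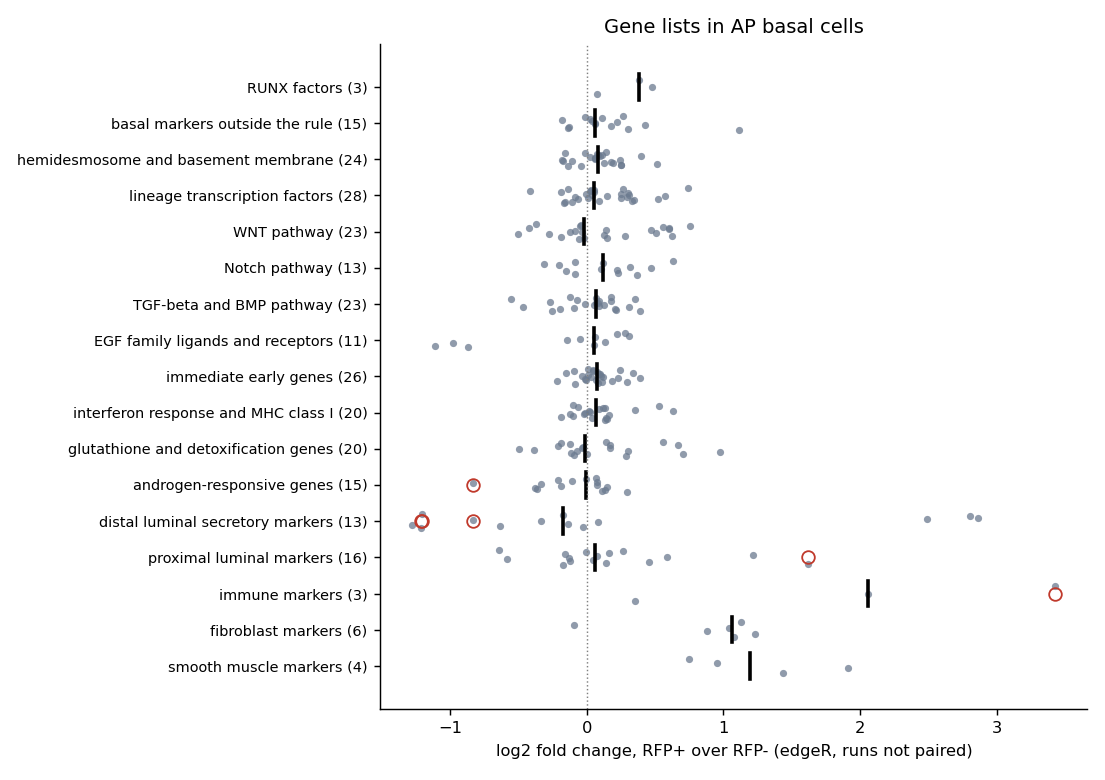
Log2 fold change of RFP+ over RFP- in AP basal cells (edgeR, runs not paired) for each tested member of 17 gene lists, with the number tested in brackets. Black bars are list medians and red rings mark genes that passed with runs paired. Medians of the lineage and pathway lists lie between -0.02 and 0.12, while those of immune, fibroblast and smooth muscle markers lie at 1.06 or above on 3 to 6 genes, most of them low.

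Markers of other cells were present in some sums. Immune markers (6) summed to 37.6, 183 and 1.34 CPM in RFP+ and 11.2, 14.1 and 4.44 in RFP-, with Cd3d at 0 in all 6 sums. Smooth muscle markers (3) summed to 606, 18.95 and 9.74 CPM in RFP+ and 26.1, 261 and 6.66 in RFP-, and mesonephric markers (3) to 673 CPM in RFP+ run 1 and at most 9.38 in the others. Run 1 RFP+ was thus the highest sum for smooth muscle and mesonephric markers, and run 2 RFP+ for immune markers. Fibroblast markers (4) summed to 2540 to 3370 CPM in RFP+ and 2900 to 3680 in RFP-, nearly all of it Dcn, at 2481 to 3676 CPM in every sum. The paper lists Dcn among basal markers in its explant cultures, so this sum cannot be read as fibroblast RNA. Col1a1, Col3a1 and Pdgfra reached at most 25.8, 40.0 and 9.475 CPM in any sum. Endothelial markers (3) summed to 7.39 to 63.7 against 4.44 to 45.4 CPM, urothelial markers (3) to 2.35 to 31.1 against 1.11 to 85.6, and neuroendocrine markers (2) to at most 0.931. Distal luminal markers (6) summed to 1440 to 30400 against 1930 to 6650 CPM. The highest of these sums, RFP+ run 2, came from Sbp and Spink1, with 93.2% of Sbp UMIs in 5 cells. The part of these cells in the differences above was not tested beyond the alternatives named.

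The next question was whether the RFP gates differed in basal cells as they did in luminal cells of the same lobe. They did not, and the difference itself was tested on 12 sums. The luminal cells, 431 RFP+ and 279 RFP-, had Krt5 and Krt14 under 1 and Krt8 and Krt18 at least 5 UMIs per 10000. In luminal cells alone 1977 of 9112 genes (21.7%) passed, and 3005 (33%) with runs paired. The interaction, basal minus luminal RFP difference, passed in 503 of 10158 genes (4.95%), 149 with a positive value (1.47%) and 354 with a negative one (3.48%), and in 1551 (15.3%) with runs paired, the 503 included. Leaving out run 2 or run 3 gave 0 calls without pairing, and 720 each with it. Over 1961 genes at 50 CPM or more in both cell classes, the median absolute log2 fold change was 0.07 in basal and 0.32 in luminal cells, 11 against 238 genes differed by over 1, and the luminal difference was the larger in 1669 (85.1%).

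**Figure D4:**
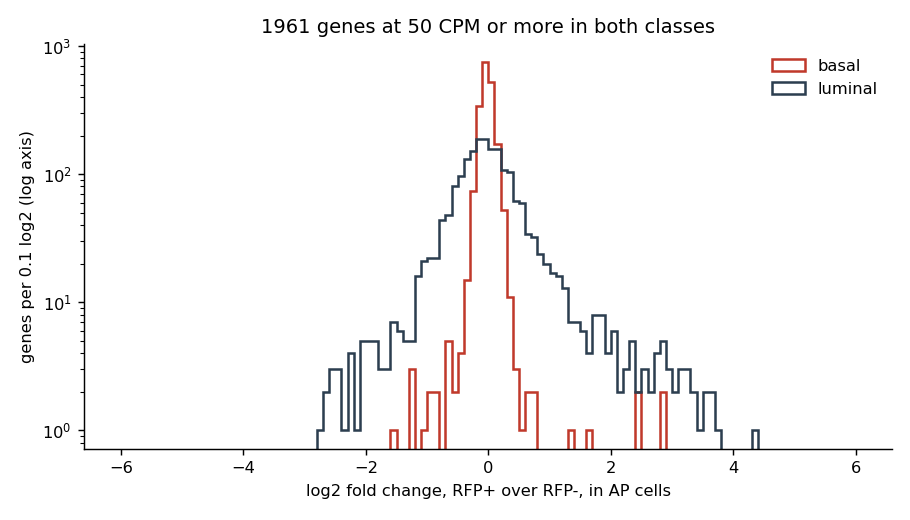
Distribution of log2 fold changes of RFP+ over RFP- in AP basal (red) and AP luminal (dark) cells, over the 1961 genes at 50 CPM or more in both, in bins of 0.1 on a logarithmic count axis. Basal values gather within a narrow peak at 0, with a median absolute value of 0.07, and luminal values spread wider, at 0.32.

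Runx1 itself separated the gates far more in luminal than in basal cells. Luminal levels were 97.1, 124 and 117 CPM in RFP+ and 22.03, 14.2 and 8.53 in RFP-, without overlap, at ratios of 4.41, 8.77 and 13.7. The interaction was -2.26 (SE 0.57, adjusted p = 0.0424, edgeR; with runs paired -2.24, adjusted p = 0.00237). The RFP- basal sums, at 67.0 to 122.6 CPM, thus lay nearer to RFP+ than to RFP- luminal cells.

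**Figure D5:**
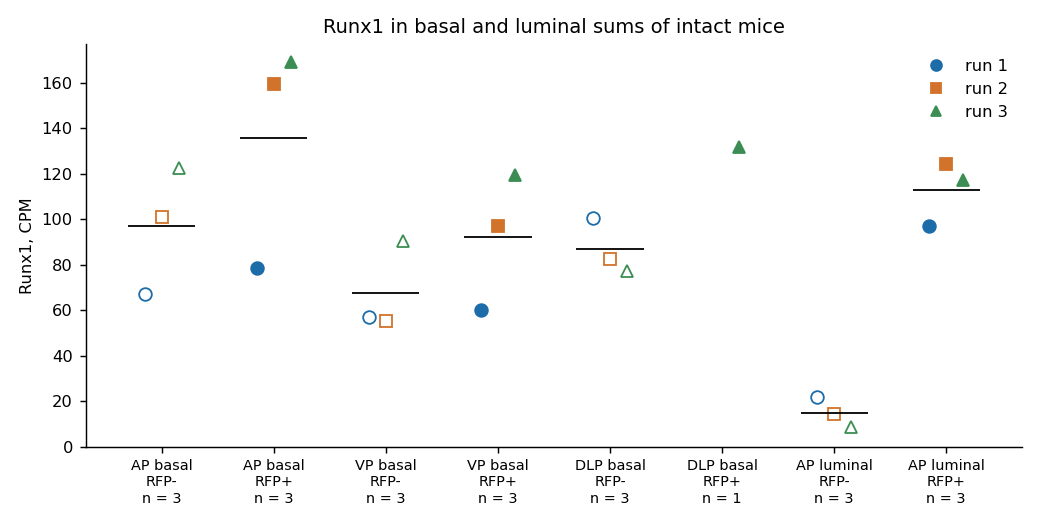
Runx1 in CPM (linear axis from 0) for each run in AP, VP and DLP basal cells and AP luminal cells of intact mice, with open symbols for RFP-, filled symbols for RFP+ and a line at the mean where there are 3 runs. All basal groups lie between 55.4 and 169 CPM, and RFP- luminal cells lie at 22.03 CPM or below.

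The 5 genes with the most negative interaction were higher in RFP+ than in RFP- luminal cells in each run, and none was higher or lower in RFP+ basal cells past the threshold. Il33, an epithelial alarmin cytokine, stood at 216, 106 and 109.5 CPM in RFP+ and 251, 102 and 114 in RFP- basal cells, and at 32.5, 11.7 and 10.2 against 2.38, 0.802 and 1.07 in luminal cells (-3.66, SE 0.71, adjusted p = 0.0158). Ctgf, a matricellular target of YAP signalling, stood at 104.8, 64.7 and 65.8 against 117, 56.3 and 51.1 CPM in basal cells, and at 52.5, 45.7 and 49.0 against 7.74, 2.41 and 1.07 in luminal cells (-3.44, SE 0.50). In each run both were higher in RFP- basal cells than in RFP+ luminal cells. Gsta3, a glutathione transferase, gave -4.39 (SE 0.86) with RFP+ to RFP- ratios of 1.75, 0.941 and 0.682 in basal cells, and Sbspon, a secreted somatomedin B and thrombospondin domain protein, gave -3.57 (SE 0.74) at 174.7 to 237 CPM in all 6 basal sums. Ly6c1, a surface protein of the Ly6 family, gave -3.49 (SE 0.84).

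Genes with the most positive interaction were those lower in RFP+ than in RFP- luminal cells. Gpt2, the mitochondrial alanine transaminase, gave 2.23 (SE 0.35), and Asns, asparagine synthetase, gave 2.19 (SE 0.53). Basal Gpt2 stood at 22.3, 14.7 and 11.8 CPM in RFP+ and 19.4, 15.2 and 9.43 in RFP-. Mcfd2, a cargo receptor subunit of the secretory pathway, gave 2.01 (SE 0.38) and Marcks, an actin-binding substrate of protein kinase C, gave 1.82 (SE 0.44). Of the proximal luminal list, 12 of 17 tested genes passed as higher in RFP+ luminal cells (11.7% of all genes did), with a median of 3.06, while in basal cells 0 of 16 passed, or 1, Clu, with runs paired, and the median was 0.06. By the unpaired test of the difference itself, only 2 of 17 passed, with negative values, against 3.48% of all genes. The median interaction of the list was -2.875. Clu did not differ in its RFP effect between the classes at the threshold (-1.95, SE 1.10, adjusted p = 0.372).

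The last comparison was with basal cells of the ventral prostate (VP), 145 RFP+ and 180 RFP-, with 12 to 98 cells in a sum. The test of whether the RFP difference differed between AP and VP basal cells called 0 of 8226 genes in edgeR (0%) and 0 in DESeq2, with 222 at an unadjusted p under 0.05 in edgeR, and 9 (0.109%) with runs paired. With runs paired DESeq2 called 19 of 18097 (0.105%). The 9 of edgeR, chosen after their values were seen, were Ren1, Lcn2, Tpm2, Apoe, 9530053A07Rik, 5430419D17Rik, Col18a1, Srd5a1 and Tspan13. Runx1 in VP basal cells stood at 59.9, 97.0 and 119 CPM in RFP+ and 56.8, 55.4 and 90.4 in RFP-, higher in RFP+ in 3 of 3 runs as in the AP. Clu stood at 5.21, 29.4 and 43.9 CPM against 18.9, 21.5 and 12.4 in the VP, higher in RFP+ in 2 of 3 runs. In the dorsolateral prostate (DLP), where RFP+ basal cells came from run 3 only and no test was possible, Runx1 stood at 131.9 CPM in RFP+ and 77.2 in RFP- of that run, and Clu at 135 against 19.1.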

How the data were processed

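Droplet RNA of EPCAM+ prostate cells and their MULTI-seq tags were counted by the authors; the submitters' processing notes name Cell Ranger 3.1.0, Seurat 3.1.5 and GRCm38 (mm10). The deposited values are raw UMI counts per gene and cell, with deposited barcode counts per cell. From these counts, populations were assigned by barcode ratio, basal cells by the rule in the report, and UMIs summed per run and gate (sums under 10 cells left out; unmapped per-sample columns: 0). Genes were tested with edgeR 4.0.16 (TMM, filterByExpr, quasi-likelihood F test, Benjamini-Hochberg) in R 4.3.3, with DESeq2 1.42.0 as an alternative; fits were tested on simulated data. Rule genes and mt- genes were not tested. RFP+ and RFP- sums of the same run share mice and library, and their deviations from gate means correlated at 0.684, 0.378 and 0.659, so run was also fitted as a block. The values between different runs (-0.546 to -0.107) add nothing to this, since deviations from a mean of 3 runs sum to 0. No sums of a gate agreed within sampling noise. AP basal and luminal sums held 852908 to 5372834 UMIs and VP basal sums 105674 to 1127905. No doublets were removed from the main values; leaving out the highest 6% of Scrublet scores (scanpy 1.11.5) was an alternative. Named genes were RUNX family members and Trp63, passing genes or the 3 most abundant of a list, the 5 largest and 5 smallest interactions at 50 CPM or more, and the rule genes; genes passing only with runs paired were added afterwards. Some genes that these rules name are not reported here. Cells, members and gene lists were chosen with earlier results of these data known.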

Additional observations from a re-analysis of the deposited data

Results flagged for a closer look

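The RFP effect differed between AP basal and AP luminal cells by the test of the difference itself in 503 genes. Among the genes named by the rule, this difference (basal minus luminal log2 fold change of RFP+ over RFP-) was positive for Gpt2 at 2.23, Asns at 2.19, Mcfd2 at 2.01 and Marcks at 1.82. It was negative for Gsta3 at -4.39, Il33 at -3.66, Sbspon at -3.57, Ly6c1 at -3.49 and Ctgf at -3.44, and it was -2.26 for Runx1. Groups of 3 runs were too small for a check of single outlying sums.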

How the results depend on the processing

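The count of 0 genes between AP basal gates held under all 14 alternatives without the replicate block, and was 14 with it. With runs paired (alternatives chosen after seeing the data), it was 2 in DESeq2, 98 with no low-count filter, 34 under the barcode thresholds of the study, 32 with at least 20 keratin UMIs per 10000, 9 with cells thinned to 3000 UMIs, and 69, 59 and 3 without run 1, 2 and 3. Of the 14 genes, 6 were also called without the cells richest in luminal RNA and 7 without the highest Scrublet scores. Signs turned for Runx2 (-0.16, paired -0.12) and Cbfb (-0.21, paired -0.20) without run 3 (with 1 run left out, unpaired, Runx2 ran from -0.16 to 1.26 and Cbfb from -0.21 to 0.25), for Cbfb with the stricter keratin limit (-0.062, paired -0.082), and without the cells richest in luminal RNA for Tgm4 (0.13, paired 0.012), Chn2 (0.21, paired 0.093) and Pbsn (0.084 unpaired). The interaction with luminal cells gave 503 genes, 1551 with the replicate block, 295 with stricter barcode ratios, 183 with thinned cells and 0 to 361 with 1 run left out; paired, it gave 585 with thinned cells and 720 to 742 with 1 run left out. The interaction with VP basal cells gave 9 with the replicate block and 9 with no filter, against 0. The cause of these shifts was not tested. RFP- basal sums of runs 1 and 2, with 85 and 60 cells, and VP sums limit what could be detected.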
